A study of Mus musculus with 9 samples.

Results

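Tumor necrosis factor (TNF), its receptors and the NF-kB genes that it switches on or that hold it back were examined in MPC, primary cells grown from mouse tumors, of which 9 clones were sequenced. The 10 genes were taken by symbol from the 18049 genes of the deposited table: the ligand Tnf, the receptors Tnfrsf1a and Tnfrsf1b, the TNF-induced genes Tnfaip3 and Tnfaip2, the inhibitor Nfkbia, and the NF-kB subunits Nfkb1, Nfkb2, Rela and Relb. All 10 were found once each and all 10 passed the filter on low values, a mean of at least 10 normalized counts. The MPC came from tumors of WTg mice, which carry EL1-Luc and EL1-TAg together with CAG-Mettl3. In the EL1 transgenes the elastase I promoter, active in pancreatic acinar cells, drives luciferase and the SV40 large T antigen, and in CAG-Mettl3 the broadly active CAG promoter drives the open reading frame of the m6A methyltransferase Mettl3. Colonies were picked from passaged tumor cultures with cloning cylinders. All 9 clones therefore form 1 genotype with no control group among them, and how many mice they came from, and the age of these mice, are not given in the sources used here. The labels are at odds on treatment: one field names the PLK1 inhibitor NMS-P937 (80 nM, 24 h) and another says that there was none.

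TNF is made as a membrane protein, mainly by macrophages and other immune cells, and is shed by the protease ADAM17. It binds TNFR1, encoded by Tnfrsf1a and present on most cells, and TNFR2, encoded by Tnfrsf1b and found mostly on immune and endothelial cells. In the canonical pathway the receptor leads to phosphorylation and loss of IkBα, the product of Nfkbia, which frees the dimer of RELA and the p50 product of Nfkb1. That dimer switches on Nfkbia and Tnfaip3, whose products IkBα and A20 shut the pathway down again, while the p52 product of Nfkb2 and RELB act in the slower non-canonical pathway.

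Motifs for NF-kB binding, called κB sites, are part of the feedback loop. RefSeq promoter windows on GRCm38.p6, which run from 250 bases before to 50 bases after a gene's start, were at hand for 8 of the 10 genes, not for Nfkb1 and Relb. The κB pattern GGGNNTTTC, searched on both strands, was found in 4.36% of all 32851 windows and in those of Tnfaip3, Nfkbia, Nfkb2 and Rela. The sites printed here are those of the 2 feedback inhibitors and of Nfkb2 and Rela that lie nearest to a start. Capitals mark the match, and each sequence is read on the strand of its gene.
Tnfaip3 (chr10:19015402-19015431, minus strand): atttccatcgGAAATCCCCctgttggcaaa
Nfkbia (chr12:55492626-55492655, minus strand): ccgcccctgaGAAATCCCCtgccagcgttt
Nfkbia (chr12:55492656-55492685, minus strand): gactggcttgGAAATTCCCcgcgcctgacc
Nfkb2 (chr19:46304716-46304745, plus strand): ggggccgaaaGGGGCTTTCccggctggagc
Nfkb2 (chr19:46305695-46305724, plus strand): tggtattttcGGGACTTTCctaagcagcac
Rela (chr19:5637434-5637463, plus strand): aacgggacccGAAATCCCCtaaaaacagag
The match began 11 bases before the start in Tnfaip3, and in Nfkbia matches began 28 bases before it and 2 bases after it. Nfkbia held 3 matches in its single window. Nfkb2 has 3 annotated windows, each with a match, and 2 of them share the second site shown. Tnfaip3 held its matches in 1 of its 2 windows. The windows of Tnf, Tnfrsf1a, Tnfrsf1b and Tnfaip2 held no match to these letters. The letters were chosen after some of these promoters had been seen, and a match describes the sequence, not binding.

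Levels are given as normalized counts, that is, read counts that the authors multiplied by 1 factor per library. They are not divided by gene length, so they compare libraries for a given gene and not genes with each other. The column names carry 3 prefixes, called A, B and C here, with 1, 4 and 4 libraries. What a prefix stands for is not given in the sources used here. Xist, expressed from the inactive X chromosome of female cells, had 29664 to 32912 normalized counts in the prefix B libraries. In the others it had at most 8.39. Ddx3y, a gene of the Y chromosome, was at 0 in prefix B, at 2444 in A1 and at 2376 to 2720 in prefix C. For prefix B against A or C, prefix, sex of the mouse and anything else that the prefixes share cannot be told apart. A1 and the prefix C libraries shared the male pattern of both genes. The libraries held 12198036 to 20453884 reads on genes. Library A1 was the shallowest, the next holding 16526388, and 3 reads, taken as the floor, were worth 3.79 to 6.56 normalized counts. The labels call the cells fibroblasts, and all 8 fibroblast markers were above the floor in every library, with summed levels of 111899 to 427479. All 10 macrophage markers were above it as well, with sums of 486874 to 777430. Of 5 epithelial markers, Epcam was at 0 in every library, while Krt19 (7.23 to 145) and Cdh1 (8.91 to 152) were above the floor in every library. The summed acinar markers were at 2415 in C3 and at 144 to 396 in the others. Among the acinar markers only Cela1 (144 to 293) was above the floor in every library. The other acinar markers, Prss2, Cela2a, Ctrb1, Cpa1 and Amy2a5, were each highest in C3. In such bulk RNA, fewer cells of a type and less RNA per cell cannot be told apart, and the part that each cell type plays in the levels below was not tested.

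Tnf (chr17:35199367-35202007) was expressed in every clone. Its level was 1232 normalized counts in library A1, 588, 469, 755 and 601 in B1 to B4, and 652, 434, 511 and 727 in C1 to C4. A1 stood alone above the rest, and the prefix B and prefix C clones overlapped throughout. The mean was 663 ± 240 (SD, n = 9), and 592 ± 117 over the 8 clones of prefixes B and C. A1 was 2.08 times that second mean, with a 95% Wilson interval of 1134 to 1338 from its 563 reads, which covers counting error only. An A1 level at least as high relative to the other clones was seen for 2.97% of the 14705 genes above the filter, and 19.9% of them were higher in A1 than in all 8 others. The SD of log2 Tnf, 0.45, was at the 89th percentile of the 500 genes closest to it in level, and at the 78.8th without A1.

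The receptors differed in spread, the SD of log2 values being at the 24.6th percentile of genes of like level for Tnfrsf1a and at the 62.4th for Tnfrsf1b. Tnfrsf1a, on chromosome 6, ran from 4344 in C2 through a median of 5057 to 5507 in C4, a mean of 5036 ± 391 (SD, n = 9). Tnfrsf1b, on chromosome 4, ran from 4207 in C2 through 6173 to 7203 in C4, a mean of 6044 ± 924. Both receptors were thus lowest in C2 and highest in C4, and A1 lay inside the range of the other clones for both. The ratio of Tnf to Tnfrsf1a was 0.254 in A1 against 0.0926 to 0.141 in the other 8, so A1 combined the highest ligand level with ordinary receptor levels.

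**Figure D1:**
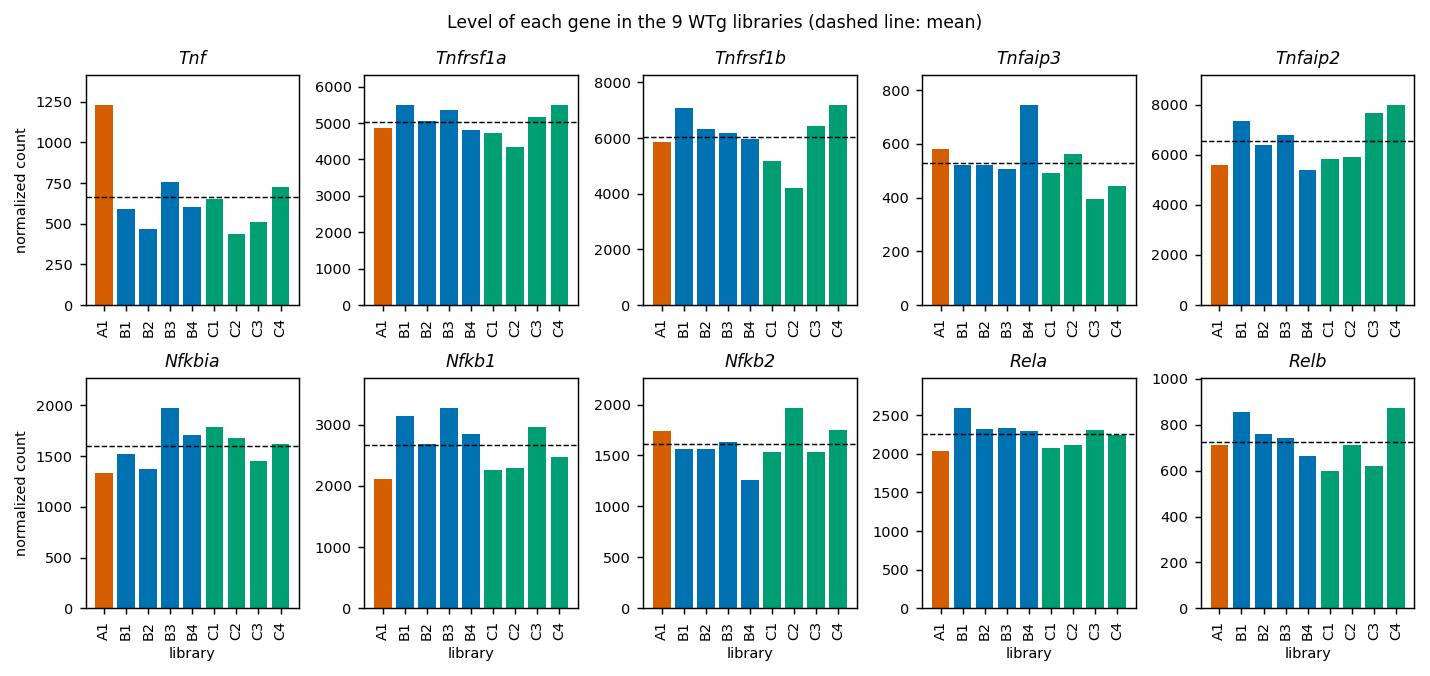
Normalized count (y axis, linear from 0) of each of the 10 genes in the 9 WTg libraries (x axis), with bars colored by column-name prefix (A orange, B blue, C green) and the mean as a dashed line. Tnf in A1, at 1232, stands above the 434 to 755 of the other clones, while the Tnfrsf1a bars stay between 4344 and 5507.

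The feedback genes did not share the height of Tnf in A1. Nfkbia was at 1337 in A1, the lowest of the 9, and at 1376 to 1977 in the others, with a median of 1616 over all 9. Tnfaip3 was at 582 in A1, within the 395 in C3 to 746 in B4 of the others, and its mean was 530 ± 98.9 (SD, n = 9). B4 was the highest clone for Tnfaip3, which encodes the ubiquitin-editing enzyme A20. The ratio of Nfkbia to Tnf was 1.09 in A1 and 2.22 to 3.86 elsewhere, and that of Tnfaip3 to Tnf was 0.472 in A1 and 0.612 to 1.298 elsewhere. In both ratios A1 was below every other clone. Tnfaip2, a TNF-induced gene linked to membrane protrusions called tunneling nanotubes, ran from 5389 in B4 through 6388 to 8008 in C4, with A1 at 5582.

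**Figure D2:**
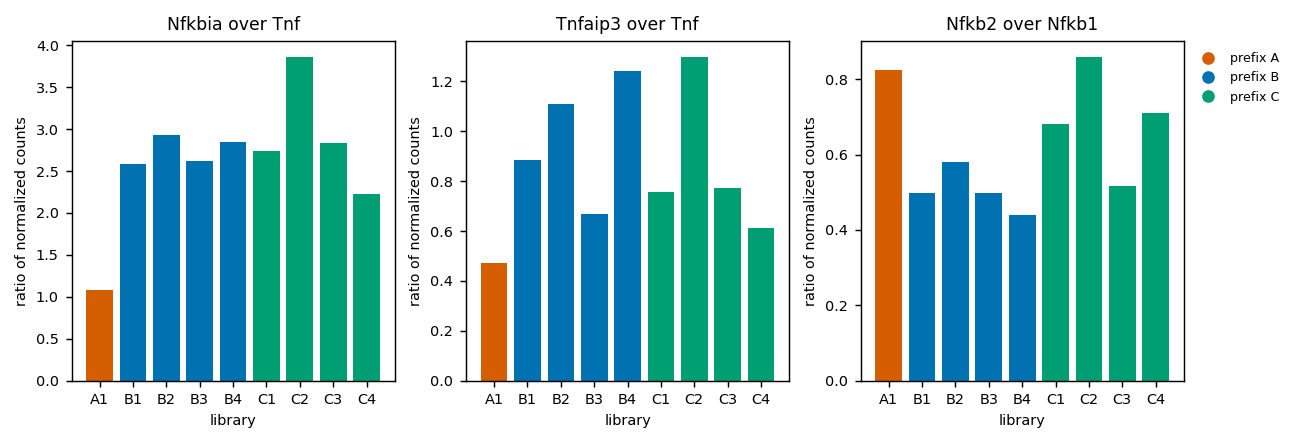
Ratio of normalized counts (y axis, from 0) in each of the 9 libraries (x axis, colored by prefix) for Nfkbia over Tnf, Tnfaip3 over Tnf and Nfkb2 over Nfkb1. A1 has the lowest bar in the first and second panels, at 1.09 and 0.472, and the third runs from 0.440 in B4 to 0.859 in C2.

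The canonical subunits were at the low end in A1. Nfkb1 was at 2116 there, below the 2252 in C1 to 3277 in B3 of the others, and Rela at 2037, below the 2076 in C1 to 2597 in B1. For Nfkbia, Nfkb1 and Rela the A1 level lay below all 8 others, as it did for 20.4% of all genes tested. Rela varied least of the 10, with an SD of log2 values of 0.107. The non-canonical subunits did not share the A1 position. Nfkb2 was at 1744 in A1, within the 1255 in B4 to 1968 in C2 of the others, and Relb, at 713, within 598 in C1 to 874 in C4. The ratio of Nfkb2 to Nfkb1 ran from 0.440 in B4 to 0.859 in C2. It was 0.824 in A1, 0.504 ± 0.0577 (SD, n = 4) in prefix B and 0.692 ± 0.140 (SD, n = 4) in prefix C, and the ranges of B and C overlapped. The median SD of log2 values over the 10 genes was 0.197, beside 0.251 over all genes above the filter.

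The clones were next asked whether the genes follow the level of Tnf. In a limma fit over the 9 clones on log2(normalized count + 1), 0 of the other 9 genes passed an adjusted p of 0.05, and 0 also passed an unadjusted p of 0.05. Of all 14704 genes tested, 0 passed (0.0%), and 1261 (8.58%) had an unadjusted p under 0.05. The slopes, in log2 units per log2 unit of Tnf, were 0.13 for Tnfrsf1b (95% interval -0.27 to 0.53), 0.05 for Tnfrsf1a (-0.17 to 0.28), 0.07 for Tnfaip3 (-0.37 to 0.52) and -0.04 for Nfkbia (-0.36 to 0.29). Each of these intervals leaves out a slope of 1, at which a gene would change in proportion to Tnf, though that of Tnfrsf1b reached 1.07 without A1 and 1.04 among B and C clones with the prefix as a term. The median slope of the 9 genes was 0.03, beside 0.00 over all genes. A1 weighs on this fit: without it the slope of Nfkbia was 0.37, with an adjusted p of 0.715, and it was again 0.37 among B and C clones with the prefix as a term.

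Tnf was also set against the transgene. Mettl3, for which reads of the transgene and of the endogenous gene cannot be told apart, was at 2184 in A1 and at 468 to 621 in the other 8 clones. The slope of Tnf on Mettl3 was 0.51 (SE 0.13, 95% interval 0.21 to 0.81) and missed the threshold, with a limma adjusted p of 0.0957. Of the 10 genes 0 passed, while 386 of 14704 genes did (2.63%), and 1 of the 10 had an unadjusted p under 0.05, beside 15.0% of all genes. The slope of Tnf rests on A1, for it was 0.15 (-1.40 to 1.69) without that clone, and 0 genes then passed in all. Leaving A1 out narrows the range of Mettl3 to that of the 8 other clones, which the width of this interval shows.

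Prefixes B and C, with 4 clones each, were compared without A1. The 2 ranges overlapped for all 10 genes. They did not for 10.3% of all genes above the filter, and 10 genes are too few to show a difference from that share. In the limma fit 0 of the 10 genes passed, and 29 of 14705 genes did (0.197%). At an unadjusted p under 0.05 there was 1 of the 10, beside 20.1% of all genes. Nfkb1 came nearest, with 2991 ± 271 (SD, n = 4) in prefix B and 2496 ± 328 in prefix C, a log2 difference of 0.27 (95% interval 0.03 to 0.50, adjusted p = 0.216). Tnf was at 603 ± 118 in prefix B and 581 ± 133 in prefix C, a log2 difference of 0.06 (-0.38 to 0.50).

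**Figure D3:**
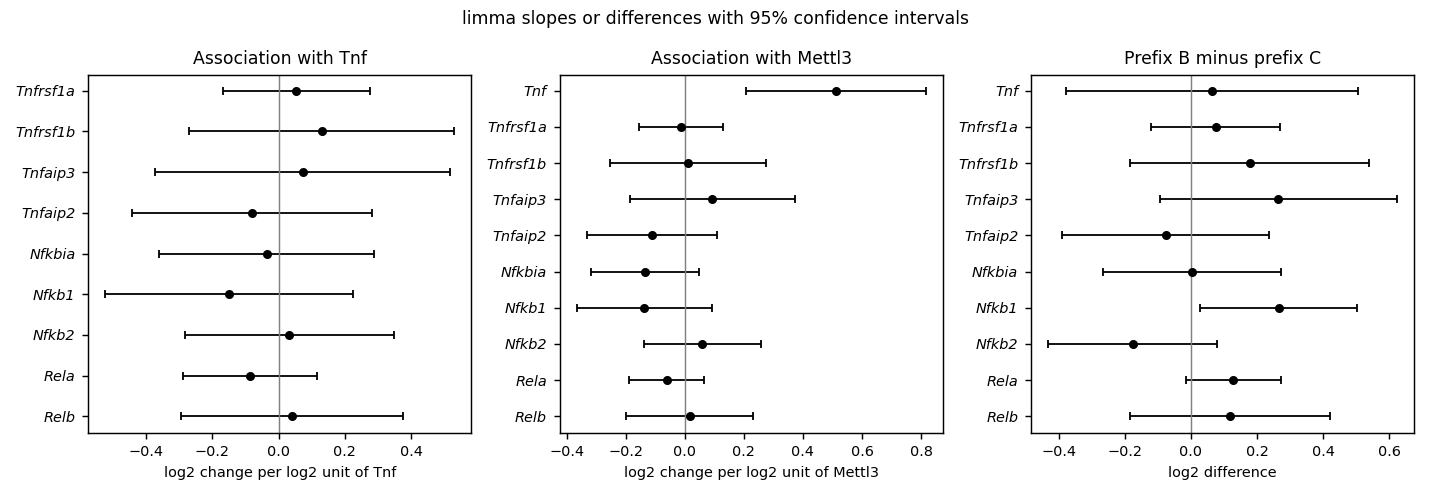
limma slopes on log2 Tnf and on log2 Mettl3 over 9 clones, and log2 differences between prefixes B and C over 8 clones (x axes), for each gene (y axis), as points with 95% confidence intervals. Among the Tnf slopes every interval spans 0, and among the Mettl3 slopes the interval of Tnf, 0.21 to 0.81, lies above 0.

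A further 6 fits were chosen after these values had been seen. They took Rela, Relb, Tnfrsf1a, Nfkbia, the macrophage markers or the fibroblast markers (each list as its mean log2 level) as the measure to follow, and each was adjusted on its own. Nfkb1 rose with Rela: from A1, lowest for both, to B1 and B3, the highest of Rela and of Nfkb1, its slope was 1.86 (SE 0.37, adjusted p = 0.0293). In that fit 1 of 9 genes passed, beside 1466 of 14704 genes (9.97%), and 3 of 9 had an unadjusted p under 0.05, beside 30.8% of all genes. The call of Nfkb1 was lost without A1, B2, B4, C1 or C2 in turn (adjusted p of 0.0506 to 0.0896, slopes of 1.74 to 1.90) and with the prefix as a term. Tnfrsf1b and Tnfrsf1a followed the same order at their ends, C2 to C4. The slope of Tnfrsf1b on Tnfrsf1a was 1.97 (SE 0.31), which missed the threshold at an adjusted p of 0.0977, with 0 of 14704 genes called (0.0%) and 2857 (19.4%) at an unadjusted p under 0.05. Tnfrsf1b, Tnfaip2 and Nfkb1, 3 of the 9 genes, had such a p. Without B4 Tnfrsf1b passed, at 2.05 (adjusted p = 0.0404), beside 0.85% of all genes. For Relb and for Nfkbia, 0 of the 9 genes and 0 of all genes (0.0%) passed, and 454 (3.09%) and 654 (4.45%) had an unadjusted p under 0.05.

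**Figure D4:**
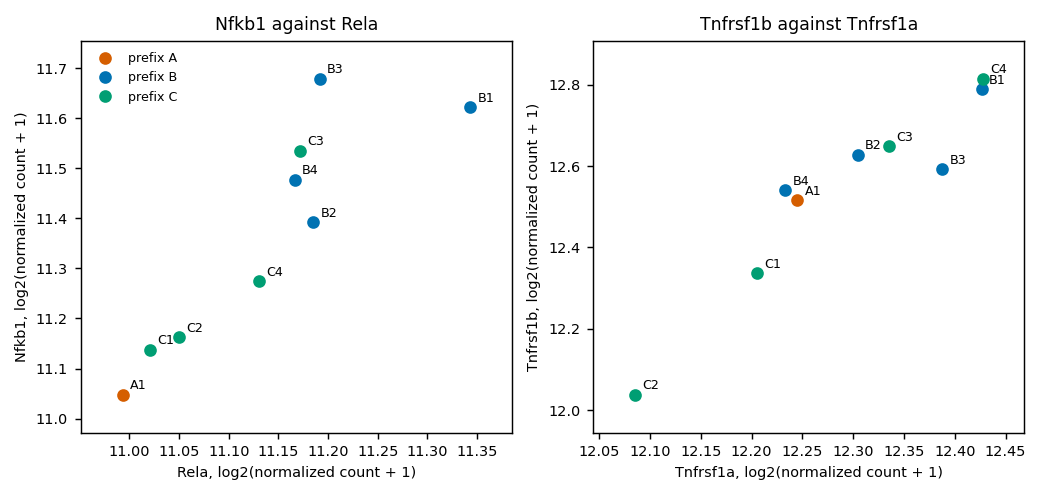
log2(normalized count + 1) of Nfkb1 against Rela and of Tnfrsf1b against Tnfrsf1a in the 9 clones, 1 point per library, colored by prefix. A1 is lowest for both Nfkb1 and Rela, and C2 is lowest and C4 highest for both receptors.

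Against the macrophage markers 0 of the 10 genes passed, while 1403 of 14695 genes did (9.55%), and 4 of the 10 had an unadjusted p under 0.05, beside 29.9% of all genes. Those 4 had positive slopes: 0.81 for Tnfrsf1b (adjusted p = 0.0529), 0.77 for Nfkb1 (0.0514), 0.40 for Tnfrsf1a (0.0743) and 0.36 for Rela (0.0923). That of Tnf was 0.22 (95% interval -1.21 to 1.65). With the filter at a mean of 50, Tnfrsf1b and Nfkb1 passed, with adjusted p of 0.0465 and 0.0452, beside 12.9% of all genes. Tnfrsf1b also passed without C4 (0.0459, beside 8.40% of all genes), and Nfkb1 without A1 (0.0382, beside 12.5%) or C3 (0.0398, beside 9.43%). Against the fibroblast markers Nfkb1 fell, with a slope of -0.39 (SE 0.10, adjusted p = 0.0332), as 1 of the 10 genes beside 2416 of 14697 (16.4%). It was also the only one of the 10 with an unadjusted p under 0.05, beside 34.8% of all genes. This call was lost without A1 (adjusted p = 0.121), without B1, B2, B3, B4 or C2 in turn, without a trend, and with the prefix as a term. In neither list did the markers all move together. Among the fibroblast markers, Dcn was lowest in C2, at 217 normalized counts, where Col1a1, Col1a2 and Vim were highest. Among the macrophage markers, Lyz2 was highest in C4, at 577311, while Csf1r was at 24658 there and highest in B3, at 59537. Cd14 was highest in A1, at 6219, where Fcgr1 was lowest, at 983.

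Of the genes around the pathway, 5 lists were followed: receptor adaptors and kinases, other NF-kB subunits and inhibitors, TNF processing and mRNA decay, other TNF ligands, and NF-kB targets. Of the 66 genes listed, Birc3, Lta, Ltb and Fasl were not analysed here. None of the lists had a gene past the threshold in the fit on Tnf, on Relb, on Nfkbia or on Tnfrsf1a, or between prefixes B and C. At an unadjusted p under 0.05 the fit on Tnf held 1 of 20 adaptors and kinases, 0 of 9 subunits and inhibitors, 3 of 8 processing and decay genes, 0 of 5 ligands and 3 of 16 targets. Together these were 7 of 58 (12.1%), beside 8.58% of all genes.

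Among the processing and decay genes, Timp3, the tissue inhibitor that blocks ADAM17, was at 4972 in A1 and at 14488 in C4 to 72000 in B4 among the others, and its slope on Tnf was -2.30 (SE 0.50), with an adjusted p of 0.273. Zfp36, chosen for mention after its values were seen, encodes tristetraprolin, which binds Tnf mRNA and promotes its decay. It was at 5153 in A1 against 1086 to 2795 in the others, with a slope on Tnf of 1.09 (SE 0.36, adjusted p = 0.435). Its prefix B and prefix C ranges did not overlap, with B above C and a log2 difference of 0.81 (adjusted p = 0.108). Adam17 was at 3972 in A1 and 4031 ± 352 (SD, n = 9) over all clones.

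In the fit on Rela, 7 of the 58 list genes tested passed (12.1%), near the 9.97% of all genes. Zfp36l1, with a slope of 4.65, and Zfp36l2, with 2.88, both mRNA decay factors related to Zfp36, rose with it. The subunit Rel rose with a slope of 2.11, the kinases Ikbkb and Map3k14 with 1.70 and 1.35, and Rnf31, of the ubiquitin ligase complex LUBAC, with 1.52. The chemokine gene Ccl2 fell, with a slope of -8.33 and an adjusted p of 0.0466. These slopes are per log2 unit of Rela, which ran only from 2037 to 2597, a ratio of 1.27. They thus reach past the range seen, and Ccl2 itself ran from 612 to 3638. Without A1 none of these genes passed, as 0 genes passed in all. In the fit on Mettl3, 2 of 58 list genes passed (3.45%), near the 2.63% of all genes. The chemokine gene Cxcl2 rose (slope 0.83, adjusted p = 0.0388), from 93.7 to 179.5 normalized counts in the 8 other clones to 429 in A1. Bcl2a1a fell (slope -1.84, adjusted p = 0.0271), but it was at 0 in A1 and had a mean of 11.98 normalized counts, and reads of its near-identical paralogs may have been split. Neither held without A1, since 0 genes passed.

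With the macrophage markers, 7 of 58 list genes passed (12.1%), near the 9.55% of all genes. Of these, 6 rose: Ripk1, the kinase recruited to TNFR1 (slope 0.70, adjusted p = 0.0194), Rnf31 (0.77), Tab2 (0.48), Adam17 (0.48), Zfp36l1 (2.18) and Irf1 (1.198). Csf1, a growth factor for macrophages, fell (-1.34, adjusted p = 0.0204). With the fibroblast markers 10 of 58 passed (17.2%), about the 16.4% of all genes. Il6 (2.21), Tnfsf9 (0.79), Gadd45b (0.78) and Rhbdf1 (0.66) rose, and Zfp36l1 (-1.11), Zfp36l2 (-0.59), Rel (-0.46), Ikbkb (-0.44), Irf1 (-0.65) and Sharpin (-0.39) fell. Without A1, Ripk1, Rnf31, Tab2, Adam17, Zfp36l1 and Csf1 still passed with the macrophage markers, beside 12.5% of all genes. Zfp36l1, Rhbdf1 and Irf1 still passed with the fibroblast markers without A1, beside 6.33% of all genes. The macrophage calls rested on other clones as well, since 0 genes passed without B1, 31 without B3 and 7 without C2. Among B and C clones with the prefix as a term, 0 genes passed in either fit. In each list the pair of genes with the highest mean normalized count was picked by counts not divided by gene length, which do not rank expression. Of these pairs, Tab2 had 4621 ± 410 (SD, n = 9), Cflar 4529 ± 710, Tnip1 1466 ± 118, Rel 779 ± 141, Timp3 37764 ± 23977, Zfp36l2 8611 ± 1927, Tnfsf12 1510 ± 292, Tnfsf13 636 ± 164, Csf1 27166 ± 6807 and Vcam1 3727 ± 1183.

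As a description with no test, the genes whose log2 values over the 9 clones were most like those of Tnf, among 12300 genes with a mean of 50 or more, were 1110051M20Rik (Pearson's r = 0.957), Trit1, Foxred2, Oser1 and Gosr2 (0.929), all of them highest in A1. Over the 8 clones of prefixes B and C they were Cd300ld (0.964), Uqcc1, Nck1, Tmem104 and Abat (0.922). No gene was in both sets. Among the 9 other genes of the pathway, Tnfrsf1b was the most like Tnf over 9 clones, at r = 0.246 and rank 3718, and Nfkbia over 8 clones, at r = 0.628 and rank 777. All points of such a correlation share the library and its depth.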

How the data were processed

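RNA of 9 MPC clones, all of 1 group, was sequenced from stranded mRNA libraries. The submitters' processing notes list FastQC 0.11.9, STAR 2.7.10, RSEM 1.3.3 and GRCm38, without role. The authors deposited log2 values of scaled read counts with an offset of 4. Another 6 value columns of libraries from other series were not used. The log2 was undone and 4 subtracted, which gave whole reads (within 0.05 of a read or 1.5 roundings of the 4 decimals) for 100.0% of values under 1000 reads. Columns could be assigned to the group but not to single samples. The unit of each test was the clone, so p-values measure the spread between these clones. They do not measure the spread between mice, as the number of mice behind the clones, or behind each prefix, is not given. limma 3.58.1 in R 4.3.3 (lmFit, eBayes with a trend, Benjamini-Hochberg adjustment over all genes, mean of at least 10) was run on log2(normalized count + 1), after a check on simulated data. There, genes were given slopes or differences of 1 log2 unit. Of these, 51.5% were recovered on Tnf, 74.9% on Mettl3, 48.5% between prefixes and 9.55% on the macrophage markers. Of the calls, 10.5%, 8.59%, 6.80% and 0% were unchanged genes, in the same order. A gene that misses the threshold may thus still follow the measure. Python 3.11.15 with pandas 2.3.3 did the rest. Alternatives were upper quartile scaling, scaling to library totals, a pseudocount of 0.1, no filter, a mean of at least 50, no trend, voom on recovered reads, a prefix term and leaving out each library. Names in the text are the 10 genes, Mettl3, the list genes past the threshold (up to 4 per list and direction), the pair with the highest mean in each list, and the 5 genes most like Tnf. The genes and lists were chosen with earlier results of these data known.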

Additional observations from a re-analysis of the deposited data

Results flagged for a closer look

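A clone counted as far from the others where its gap to the nearest clone, divided by the range of the 9, exceeded Dixon's 95% critical value for 9 samples. Of the 37 genes named and screened in the report, 5 had such a clone, beside 10.0% of all 14705 genes above the filter, and 47.7% of those had it in A1. The genes most like Tnf, the cell type markers, Xist and Ddx3y were named but not screened. Chance alone gives about 1 in 20 for a gene with no library that stands apart. The named genes were partly chosen through A1, Cxcl2 by passing the fit on Mettl3, so their count is a description. Of the 10 genes of the pathway only Tnf did, with A1 as the highest clone and a gap of 0.597. The other 4 were Mettl3 (gap 0.911), Cxcl2 (0.744) and Zfp36 (0.580), each with A1 as the highest clone, and Vcam1 (0.531), with B2 as the highest. Zfp36 was picked for mention after its values had been seen. A1 was also the shallowest library, and its mean Pearson's r with the other libraries across genes, 0.927, was the lowest of the 9, the others having 0.947 to 0.957. The part of depth or library in these gaps was not tested.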

How the results depend on the processing

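All 9 clones are of 1 genotype, and A1 decides much of the range of Tnf and of Mettl3, so no slope can be ascribed to Tnf or to the transgene. Tnf was read 278 to 563 times per library. No paired analysis was possible because all libraries belong to 1 group. The means of the 10 genes moved by less than 1 SD under every scaling. Upper quartile factors were at most 0.030 in log2, and library totals ran from 25296797 to 26693116 normalized counts. Neither scaling could thus move a mean by 1 SD. Leaving out 1 of 9 libraries cannot move a mean by 1 SD, so that outcome was fixed in advance. Without A1 the mean of Tnf was 592, against 663 over all 9 clones. The counts of the 10 genes past the threshold in the fits on Tnf, on Mettl3 and between prefixes stayed at 0 under every alternative tried. The fits on Rela, Relb, Tnfrsf1a, Nfkbia and the markers were chosen after seeing the data. Where a value moved, the cause was not tested.

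With the prefix as a term (B and C only), 6 of 9 slopes on Tnf and 5 of 10 on Mettl3 changed sign. Leaving out A1 alone turned the same 6 on Tnf and also 5 on Mettl3, of which 3 were shared. With the prefix term, Nfkbia on Tnf was 0.37, Tnfaip3 on Tnf -0.15 and Tnf on Mettl3 -0.090. That setting left 0 genes past the threshold on Mettl3, and 0 of the pathway's genes and 0 of all genes on Rela and on the fibroblast markers, and 0 of all genes on the macrophage markers. Without a trend 648 genes passed on Rela and 866 on the macrophage markers, and 0 of the 10 on the fibroblast markers. On Mettl3 238 genes passed at a mean of at least 50 and 61 with voom, and 19 between prefixes without a filter. At a mean of at least 50, 2 of the 10 passed on the macrophage markers, beside 12.9% of all genes. Leaving out each library gave 9 to 259 genes between prefixes, 0 to 494 on Mettl3, 0 to 898 on Rela, 0 to 127 on Tnfrsf1a, 0 to 1841 on the macrophage markers and 786 to 2923 on the fibroblast markers, with 0 to 1 of the pathway's genes on Rela, Tnfrsf1a and either marker list. Slopes on Tnf then ran from -0.076 to 0.41 (Tnfrsf1b), -0.032 to 0.24 (Tnfrsf1a), -0.087 to 0.14 (Tnfaip3) and -0.11 to 0.37 (Nfkbia). The prefix difference of Tnf ran from -0.068 to 0.18 and its slope on the macrophage markers from -0.54 to 0.50.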
